A study of Mus musculus with 8 samples.

Results

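The HoxB genes are a row of homeobox genes on mouse chromosome 11, and RNA of 8 of them, Hoxb2 to Hoxb9, is described here with and without menin, in embryonic stem cells (mESCs) and in islet-like endocrine cells (PILECs) made from them in culture. Members were found by gene symbol in the platform annotation of an Affymetrix mouse array, on which 18193 genes had a probe set of their own. Of the 8 genes, 7 had at least 1 such probe set, 9 probe sets in all. Hoxb8 had none and was read only by probe set 1452493_s_at, which the annotation assigns to both Hoxb8 and Hoxb7. The end genes of the cluster, Hoxb1 and Hoxb13, are given beside the members.

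TC-1 was the wild-type line, and 3.2N, which lacks a functional Men1 gene, was the menin-null (Men1-KO) line. Both lines share the 129S6/SvEvTac background, and both were grown on irradiated feeder fibroblasts and then without feeders, in the presence of LIF, before RNA was taken or differentiation was begun. PILECs were made from each line through embryoid bodies, serum-free selection, expansion with FGF and a last stage with nicotinamide. Each of the 4 groups (wild-type mESCs, menin-null mESCs, wild-type PILECs and menin-null PILECs) was measured on 2 arrays from independent cultures. Because each genotype was 1 cell line, genotype and line cannot be told apart.

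Hox genes encode transcription factors that bind DNA through a homeodomain, often together with Pbx and Meis proteins. Within a cluster the genes at the Hoxb1 end are known to be active earlier and further towards the head of the embryo, and those at the Hoxb9 end later and further towards the tail, with retinoic acid and Cdx factors among the inducers. Menin is a subunit of the MLL1 and MLL2 histone methyltransferase complexes, which place H3K4me3 at active promoters and are known for keeping Hox genes on, whereas Polycomb complexes keep them off in embryonic stem cells.

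Promoter sequence was at hand for 2 of the 8 members and for Hoxb1, as RefSeq windows of 300 bases on assembly GRCm38.p6, from 250 bases before to 50 bases after an annotated start. They are shown because Hoxb4 and the probe set of Hoxb8 and Hoxb7 were lower without menin in PILECs while Hoxb1, at the end of the same row of genes, did not pass the test. Capitals mark matches on either strand to 4 short strings of letters. The string for a Pbx protein together with a Hox protein was TGATNNAT. The retinoic acid receptor half-site was searched as AGGTCA on its own. For the Cdx factors the letters were TTTATG in all cases. A TATA box was searched for as TATAAA.
Hoxb1, chr11:96365508-96365807, plus strand: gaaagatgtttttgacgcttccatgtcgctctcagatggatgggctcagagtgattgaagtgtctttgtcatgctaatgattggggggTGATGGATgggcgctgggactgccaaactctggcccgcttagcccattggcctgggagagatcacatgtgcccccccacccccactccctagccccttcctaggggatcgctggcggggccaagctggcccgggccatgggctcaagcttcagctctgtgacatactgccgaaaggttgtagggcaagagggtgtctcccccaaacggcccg
Hoxb4, chr11:96318017-96318316, plus strand: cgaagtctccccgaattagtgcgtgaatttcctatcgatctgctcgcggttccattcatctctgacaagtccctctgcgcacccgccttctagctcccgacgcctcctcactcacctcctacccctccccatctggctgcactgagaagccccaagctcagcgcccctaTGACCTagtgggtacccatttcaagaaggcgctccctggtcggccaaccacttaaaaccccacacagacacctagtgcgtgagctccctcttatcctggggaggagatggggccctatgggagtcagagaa
Hoxb8, chr11:96281655-96281954, plus strand: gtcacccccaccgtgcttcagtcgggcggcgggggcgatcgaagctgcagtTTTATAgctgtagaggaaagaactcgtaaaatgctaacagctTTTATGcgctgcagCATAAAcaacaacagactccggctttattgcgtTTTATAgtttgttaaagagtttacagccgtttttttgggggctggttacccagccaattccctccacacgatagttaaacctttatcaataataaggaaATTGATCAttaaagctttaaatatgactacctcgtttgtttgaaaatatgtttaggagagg

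The window of Hoxb8 held the matches to the Cdx letters and to the TATA letters, and 1 to the Pbx and Hox letters 11 bases before the start. Its Cdx letters began 157 and 143 bases before the start. The Hoxb4 window held 1 retinoic acid receptor half-site, 81 bases before the start, and the Hoxb1 window held 1 Pbx and Hox match, 162 bases before it. These letters are common: over 32851 promoter windows of the same length, 8.85% held the Pbx and Hox letters, 16.3% the half-site, 11.9% the Cdx letters and 13.6% the TATA letters. The windows held 10 (Hoxb1), 14 (Hoxb4) and 13 (Hoxb8) CpG dinucleotides, against a median of 7 over all windows. Fewer were held by 56.5%, 63.7% and 62.1% of all windows, so these counts are not unusual. A match is a string of letters and not a measured binding site.

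Men1 itself was lower in the menin-null arrays of both cell types on its brightest probe set and on 1416348_at (-1.99 in mESCs, -1.90 in PILECs). On 1443826_x_at it was not called by limma (-0.18 in mESCs, adjusted p = 0.599, and -0.32 in PILECs, adjusted p = 0.282). On its brightest probe set the deposited log2 signal was 9.90 and 9.97 in wild-type and 7.77 and 7.82 in menin-null mESCs. In PILECs it was 10.06 and 9.92 in wild-type and 7.95 and 8.02 in menin-null cells. The arrays had close medians, between 6.72 and 6.86. No detection calls were used here, so a low level was read against 74 genes for olfactory, vomeronasal and taste receptors. Of their group means, taken over all groups together, 95% lay under 6.78. The 7 members with their own probe set were all under that level in mESCs of either genotype, 1 of 7 was under it in wild-type PILECs and 5 of 7 in menin-null PILECs. Taken within each group, the level ran from 6.49 in wild-type mESCs to 6.94 in menin-null PILECs. By it the mean of Hoxb4 in wild-type mESCs (6.63) would be above and that of Hoxb2 in menin-null PILECs (6.89) under. Folds against such levels are approximate, and levels are compared between arrays and not between genes.

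In wild-type cells the HoxB genes rose when mESCs became PILECs. Of the 7 members, 6 rose, where 27.8% of all genes tested did. The median log2 difference of the 7 was 2.03, against -0.08 over all genes. In menin-null cells the median was 0.26, and 2 of 7 rose, Hoxb2 and Hoxb3, where 28.9% of all genes did. The outcome in PILECs was that 6 of 7 members were lower without menin, where 4.42% of all genes were lower, with a median log2 difference of -1.82 against -0.01 over all genes. In mESCs 0 of 7 members passed limma's test at an adjusted p of 0.05, where 3.64% of all genes did in either direction, and 0 of 7 had an unadjusted p under 0.05. These arrays read whole cultures, so fewer cells that express a gene and less of its RNA per cell cannot be told apart.

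**Figure D1:**
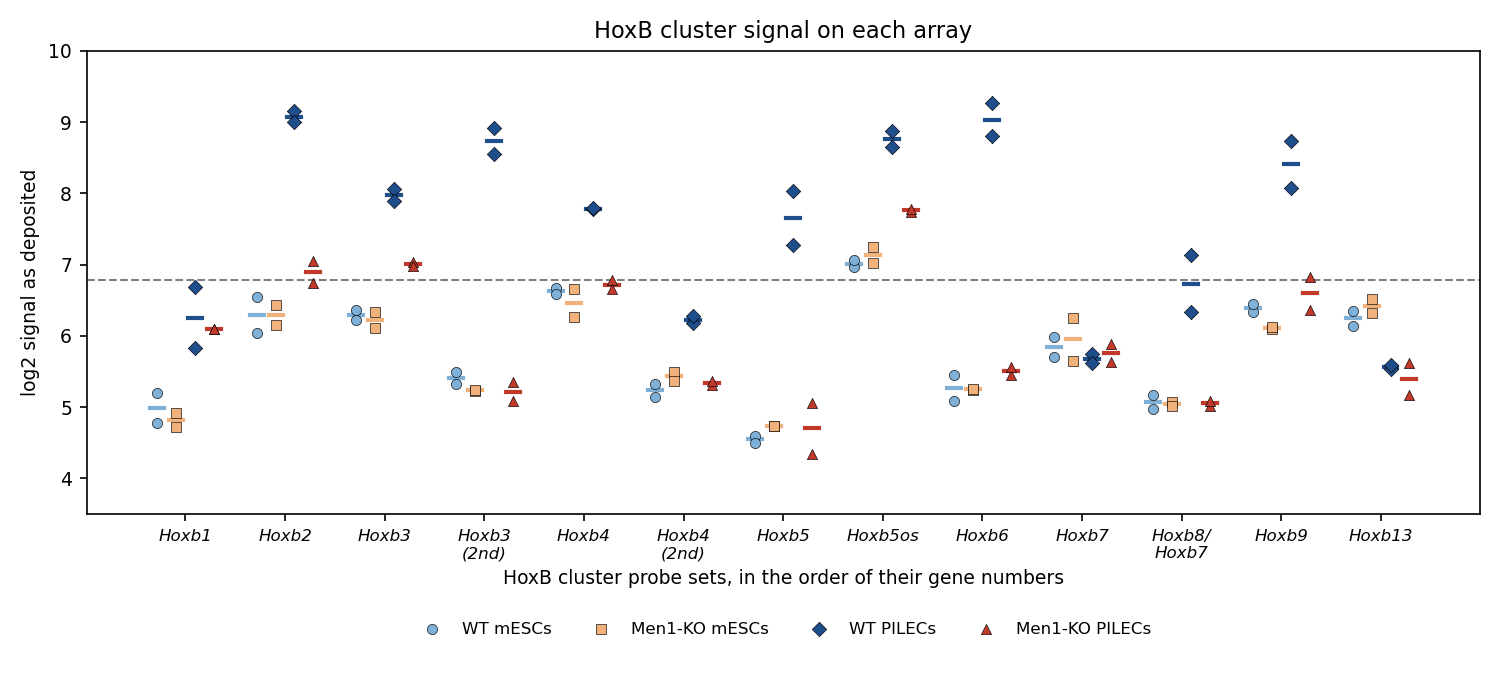
Deposited log2 signal of each HoxB cluster probe set (vertical axis) on all 8 arrays, by group, with probe sets in the order of their gene numbers. Points are arrays, short bars are means of 2 arrays, the dashed line is the receptor level of 6.78, and "2nd" marks the second probe set of Hoxb3 and of Hoxb4. On Hoxb6 the wild-type PILEC arrays sit at 9.27 and 8.80 and the other 6 between 5.09 and 5.57.

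Hoxb6, a gene of the middle of the cluster, showed the largest difference among the members by the probe sets that stand for each gene, and the second probe set of Hoxb3 matched it. Its signal (probe set 1451660_a_at) was 5.09 and 5.45 in wild-type mESCs, 5.24 and 5.26 in menin-null mESCs, 9.27 and 8.80 in wild-type PILECs, and 5.45 and 5.57 in menin-null PILECs. Only the wild-type PILEC arrays were high, and they overlapped with no other group. The log2 difference between menin-null and wild-type PILECs was -3.52 (SE 0.171, adjusted p = 0.000131), an 11.5-fold lower signal and the most negative of the 18193 genes by those probe sets. From mESCs to PILECs Hoxb6 rose by 3.77 in wild-type cells (SE 0.171, adjusted p = 4.51e-07), and in menin-null cells the difference was 0.26 with a 95% interval from -0.13 to 0.66.

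Hoxb5, its neighbour, followed the same course. It read 4.6 and 4.5 in wild-type mESCs, 4.73 and 4.73 in menin-null mESCs, 8.03 and 7.28 in wild-type PILECs, and 5.06 and 4.35 in menin-null PILECs. Both wild-type PILEC arrays were above all others, though they differed from each other by 0.75. The difference without menin in PILECs was -2.95 (SE 0.275, adjusted p = 0.00238), 7.73-fold. With 1 probe set per gene this was the second most negative value after Hoxb6, and among the 34945 single probe sets it ranked 6. Hoxb5 had risen by 3.11 in wild-type cells, while in menin-null cells the difference between PILECs and mESCs was -0.03 (95% interval -0.66 to 0.61).

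Hoxb2 is the member nearest to Hoxb1 and has a known part in patterning the hindbrain. Its signal was 6.04 and 6.55 in wild-type mESCs, 6.43 and 6.15 in menin-null mESCs, 9.15 and 9.0 in wild-type PILECs, and 6.74 and 7.05 in menin-null PILECs. Here the menin-null PILEC arrays stood between the mESCs and the wild-type PILECs. The difference without menin in PILECs was -2.18 (SE 0.187, adjusted p = 0.00174), 4.53-fold. Hoxb2 rose by 2.78 in wild-type cells and by 0.60 in menin-null cells (SE 0.187, adjusted p = 0.0214). The smaller rise lost its call without menin-null mESC array 2 (0.46, adjusted p = 0.0941) or menin-null PILEC array 2 (0.45, adjusted p = 0.134).

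Hoxb9, at the other end of the member genes and a marker of posterior identity in the embryo, read 6.33 and 6.45 in wild-type mESCs, 6.10 and 6.12 in menin-null mESCs, 8.74 and 8.08 in wild-type PILECs, and 6.83 and 6.36 in menin-null PILECs. The wild-type PILEC arrays again stood above the other groups. The difference without menin in PILECs was -1.82 (SE 0.221, adjusted p = 0.00524), 3.52-fold. From mESCs to PILECs Hoxb9 rose by 2.03 in wild-type cells, and the menin-null difference of 0.49 (95% interval -0.02 to 1.0) did not pass the test.

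Hoxb4, known for its use in expanding blood stem cells, was read by 2 probe sets that moved alike. The brighter, 1460379_at, read 6.67 and 6.59 in wild-type mESCs, 6.66 and 6.26 in menin-null mESCs, 7.78 and 7.79 in wild-type PILECs, and 6.78 and 6.66 in menin-null PILECs. The menin-null PILEC arrays lay at the upper edge of the mESC arrays. The difference in PILECs was -1.06 (SE 0.132, adjusted p = 0.0057), 2.09-fold, and it lost its call without either wild-type PILEC array, at adjusted p = 0.0579 without array 1 and 0.0686 without array 2. On the dimmer probe set, 1451761_at, the difference was -0.89 (SE 0.101, adjusted p = 0.00534), with wild-type PILECs at 6.18 and 6.28 and menin-null PILECs at 5.31 and 5.37.

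The 2 probe sets of Hoxb3, a gene with several promoters and long transcripts, differed in how far they moved. Probe set 1427605_at, which stands for the gene in the counts above, read 6.22 and 6.37 in wild-type mESCs, 6.33 and 6.11 in menin-null mESCs, 8.06 and 7.89 in wild-type PILECs, and 7.03 and 6.98 in menin-null PILECs. On it the menin-null PILEC arrays were above every mESC array. The difference without menin in PILECs was -0.97 (SE 0.11, adjusted p = 0.00459), 1.96-fold, and the rise in menin-null cells was 0.78 (SE 0.11, adjusted p = 0.000302). Probe set 1456229_at read 5.32 and 5.49, 5.23 and 5.24, 8.92 and 8.55, and 5.08 and 5.35 in the same 4 groups. There the menin-null PILEC arrays were level with the mESCs.

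On 1456229_at the difference without menin in PILECs was -3.52 (95% interval -3.85 to -3.18, adjusted p = 7.46e-05), 11.5-fold, and the change in menin-null cells was -0.02. On 1427605_at the interval ran from -1.23 to -0.71, so the intervals of the 2 probe sets do not meet, although the difference between them was not tested. Which Hoxb3 transcripts each probe set reads was not analysed here.

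Hoxb7 was the exception among the members. Its own probe set, 1427494_at, read 5.70 and 5.99 in wild-type mESCs, 6.25 and 5.65 in menin-null mESCs, 5.74 and 5.62 in wild-type PILECs, and 5.63 and 5.89 in menin-null PILECs. The 4 groups overlapped, and every array was under the receptor level. The difference without menin in PILECs was 0.08 with a 95% interval from -0.38 to 0.54, and the wild-type change from mESCs to PILECs was -0.16 with an interval from -0.62 to 0.30.

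The probe set shared by Hoxb8 and Hoxb7 moved as Hoxb6 and Hoxb9 did, and unlike the Hoxb7 probe set. It read 4.97 and 5.17 in wild-type mESCs, 5.07 and 5.01 in menin-null mESCs, 7.13 and 6.33 in wild-type PILECs, and 5.02 and 5.09 in menin-null PILECs. Both wild-type PILEC arrays were above all others, although 0.80 apart. Array 2 and the wild-type PILEC mean of 6.73 were under the receptor level of 6.78, as were the other groups. In a fit over all probe sets without controls the difference in PILECs was -1.68 (SE 0.221, adjusted p = 0.01), 3.21-fold, and the rise in wild-type cells was 1.66 (adjusted p = 0.000229). Its signal cannot be assigned to Hoxb8 or to Hoxb7, and it is not counted among the 7 members. Over single probe sets, 8 of the 9 that belong to 1 member were lower without menin in PILECs, where 2.56% of the 34945 probe sets with 1 gene were.

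The end genes, Hoxb1 and Hoxb13, were not called between genotypes in PILECs, and neither was Hoxb7 among the members. Hoxb1, the most anterior gene of the cluster, rose in both genotypes, by 1.26 in wild-type cells (SE 0.258, adjusted p = 0.00277) and by 1.28 in menin-null cells (adjusted p = 0.00254). Its PILEC arrays read 6.68 and 5.83 in wild-type and 6.10 and 6.10 in menin-null cells, which overlap, and the difference was -0.15 (95% interval -0.75 to 0.44). Hoxb13, which lies apart at the far end, fell in both genotypes, by 0.69 in wild-type cells and by 1.03 in menin-null cells, and its genotype difference in PILECs was -0.16 (95% interval -0.52 to 0.20). Neither gene was above the receptor level in any group.

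Hoxb5os, a transcript on the opposite strand within the cluster, was named after its values were seen. Its arrays read 8.88 and 8.65 in wild-type PILECs and 7.74 and 7.78 in menin-null PILECs, a difference of -1.01 (SE 0.114, adjusted p = 0.00461). Unlike Hoxb5 it also rose in menin-null cells, by 0.62 (SE 0.114, adjusted p = 0.0015).

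**Figure D2:**
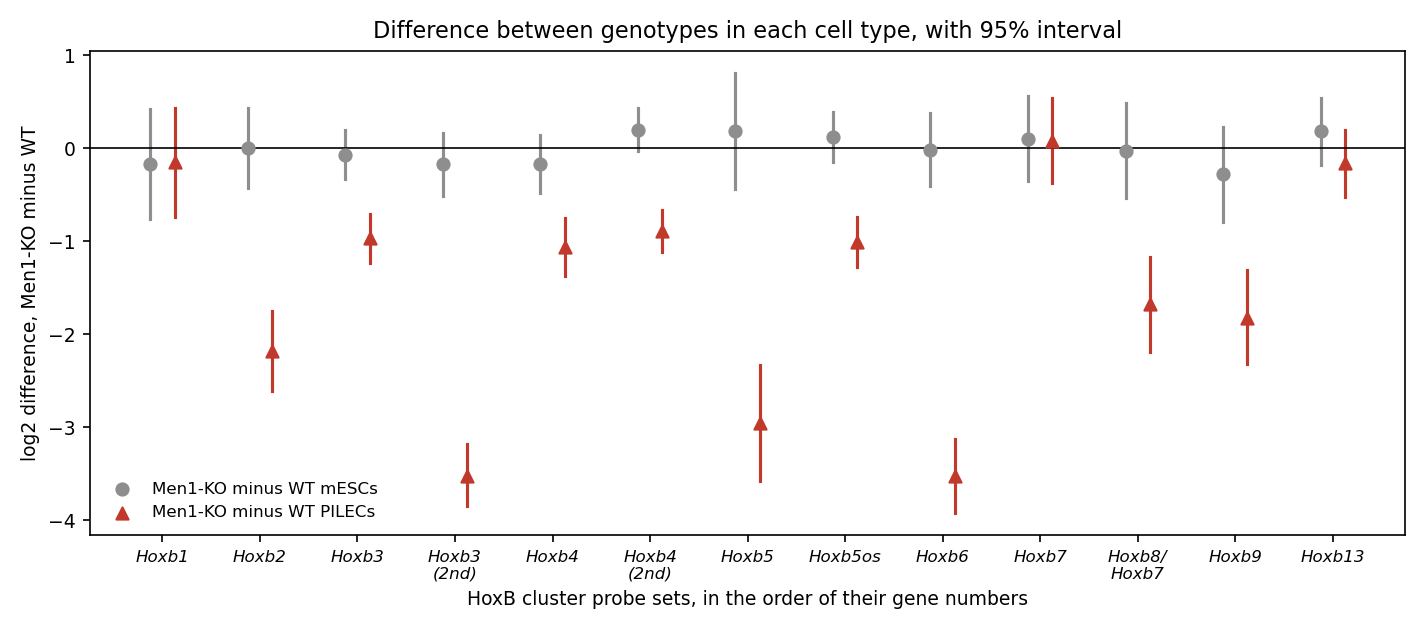
Log2 difference between menin-null and wild-type cells (vertical axis) for each HoxB cluster probe set, in mESCs (grey circles) and in PILECs (red triangles), with 95% intervals as vertical lines. All mESC intervals include 0, while in PILECs the intervals of Hoxb1, Hoxb7 and Hoxb13 alone include 0.

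**Figure D3:**
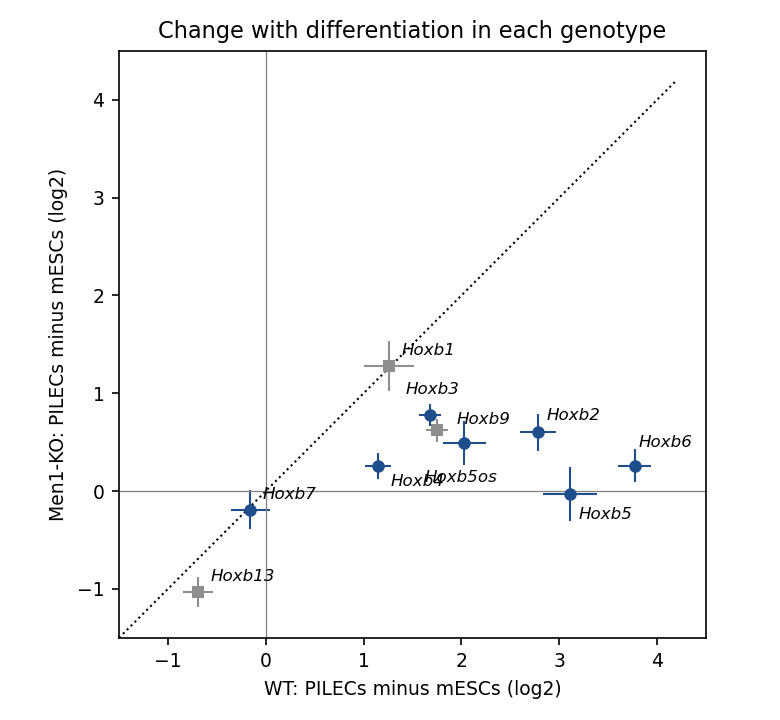
Log2 change from mESCs to PILECs in wild-type cells (horizontal axis) and in menin-null cells (vertical axis), with members in blue, other genes of the cluster in grey and SE as bars. On the dotted line both changes are equal: Hoxb1 (1.26 and 1.28) and Hoxb7 lie near it, and Hoxb6 (3.77 and 0.26) and Hoxb5 (3.11 and -0.03) lie farthest below it.

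Whether the genotype difference in PILECs exceeded that in mESCs was tested as an interaction. It was lower in PILECs for 6 of 7 members, where 1.57% of all genes were. In mESCs all 7 were under the receptor level in both genotypes, so a fall without menin could hardly be seen there. The interaction was -3.50 for Hoxb6 (SE 0.242, adjusted p = 0.00138), -3.14 for Hoxb5 (SE 0.388, adjusted p = 0.0119) and -2.18 for Hoxb2 (SE 0.265, adjusted p = 0.0119). Hoxb3, Hoxb9 and Hoxb4 were nearer to the threshold. Their values were -0.90 (adjusted p = 0.0285), -1.54 (adjusted p = 0.0455) and -0.89 (adjusted p = 0.0495). In the limma fit over single probe sets the second probe sets of Hoxb3 (-3.35, adjusted p = 0.000556) and Hoxb4 (-1.09, adjusted p = 0.016) were called. Hoxb9 (adjusted p = 0.0579) and the brighter Hoxb4 probe set (adjusted p = 0.0662) were not called in that fit. Hoxb7 had -0.02 (95% interval -0.67 to 0.63) and the probe set of Hoxb8 and Hoxb7 -1.65 (adjusted p = 0.0515).

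These interaction calls rested on few arrays. The count was 2 of 7 without either wild-type mESC array or either wild-type PILEC array, 3 without either menin-null PILEC array and 5 without either menin-null mESC array. With the replicate number as a block it was 3, with Hoxb3, Hoxb4 and Hoxb9 lost. Over all genes the block moved the interaction calls from 557 to 286, and a fit without moderation of the variances moved them to 47. Calls over all genes also fell when a wild-type array or a menin-null PILEC array was left out. The Hoxb9 call was lost in all 8 fits that left out 1 array, with adjusted p between 0.0527 and 0.16. The Hoxb6 interaction passed the test in each fit that left out 1 array, between -3.74 and -3.27. In PILECs alone the count of lower members was 5 or 6 in all such fits. Wild-type PILEC array 1 read higher than array 2 on 7 of the 9 probe sets, by 0.75 for Hoxb5 and 0.66 for Hoxb9, where the SD of that difference over all genes was 0.155.

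Of the 20 measured genes nearest to the cluster, 10 on each side, 4 were called between genotypes in PILECs, 3 lower and 1 higher, where 6.68% of all genes were called in either direction. Of the 10 measured genes beyond Hoxb13, Igf2bp1, an RNA-binding protein of embryonic tissue, was lower without menin in PILECs (-1.07, SE 0.0962, adjusted p = 0.00207), and B4galnt2, a glycosyltransferase, was higher (0.87, SE 0.118, adjusted p = 0.00797). Dropping one or other PILEC array of the wild type, or the first menin-null one, ended the call of B4galnt2. Of the 10 beyond Hoxb1, Scrn2 (-0.42, adjusted p = 0.0456) and Cbx1 (-0.35, adjusted p = 0.0463), which encodes a heterochromatin protein, were lower. Those 2 calls were lost without any 1 of the wild-type mESC arrays, the wild-type PILEC arrays or the menin-null PILEC arrays, where 0 of the 10 were lower. The nearest measured neighbours, Ttll6 (0.07) and Skap1 (0.02), were not called. In mESCs, where no member was called, 1 of the 20 was, Calcoco2 (-1.13, SE 0.0883, adjusted p = 0.00175).

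**Figure D4:**
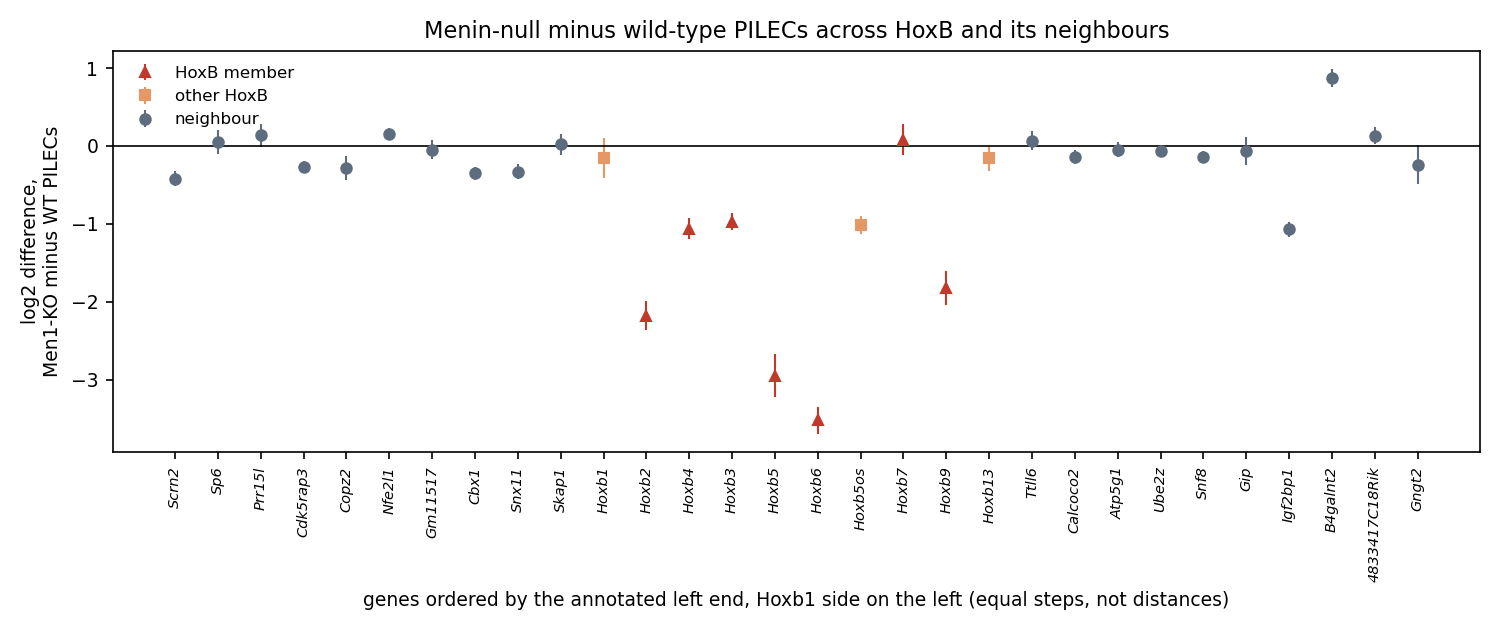
Log2 difference between menin-null and wild-type PILECs (vertical axis, bars are SE) for the cluster and the 10 measured genes on each side, ordered by the left end of the annotated gene and equally spaced, so that the long Hoxb3 gene follows Hoxb4. Members are red triangles, Hoxb1, Hoxb13 and Hoxb5os orange squares and neighbours grey circles, and the 6 lower members lie between -0.97 and -3.52.

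The other Hox clusters held lower genes as well, and no gene of them was higher. In PILECs without menin 4 of 9 measured HoxA genes, 4 of 7 HoxC genes and 3 of 8 HoxD genes were lower, with medians of -0.37, -1.20 and -0.31. Of all genes 4.42% were lower. Hoxc8 fell by 2.95 on the log2 scale (SE 0.105, adjusted p = 7.38e-05), as far as Hoxb5, and Hoxc4 fell by 1.85. Hoxd10 fell by 1.37, Hoxd3 by 1.21 and Hoxa2 by 1.08. In wild-type PILECs 5 of 9 HoxA, 3 of 7 HoxC and 5 of 8 HoxD genes had means under the receptor level. Hoxd10 (5.83), Hoxa2 (5.64) and Hoxa4 (4.99) were among them, so their falls lie within that range.

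Paralog groups can be read across the clusters, though no difference between clusters was tested. Hoxb5 was lower while Hoxa5 (-0.22) and Hoxc5 (-0.15) were not called, and Hoxb6 was lower together with Hoxc6 (-1.20, adjusted p = 0.0151). In the fourth group Hoxa4 (-0.95), Hoxb4 (-1.06) and Hoxc4 (-1.85) were all lower, as were Hoxa9 (-0.77), Hoxb9 (-1.82) and Hoxd9 (-0.67) in the ninth, where Hoxc9 (-0.74) was not called. Without wild-type PILEC array 1 the counts were 1 HoxA, 2 HoxC and 1 HoxD gene. Leaving out the second array of wild-type PILECs, or that of menin-null PILECs, gave 2 HoxA, 2 HoxC and 2 HoxD genes. In mESCs 0 HoxA, 0 HoxC and 0 HoxD genes differed by limma at an adjusted p under 0.05, with 2, 0 and 1 at an unadjusted p under 0.05.

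**Figure D5:**
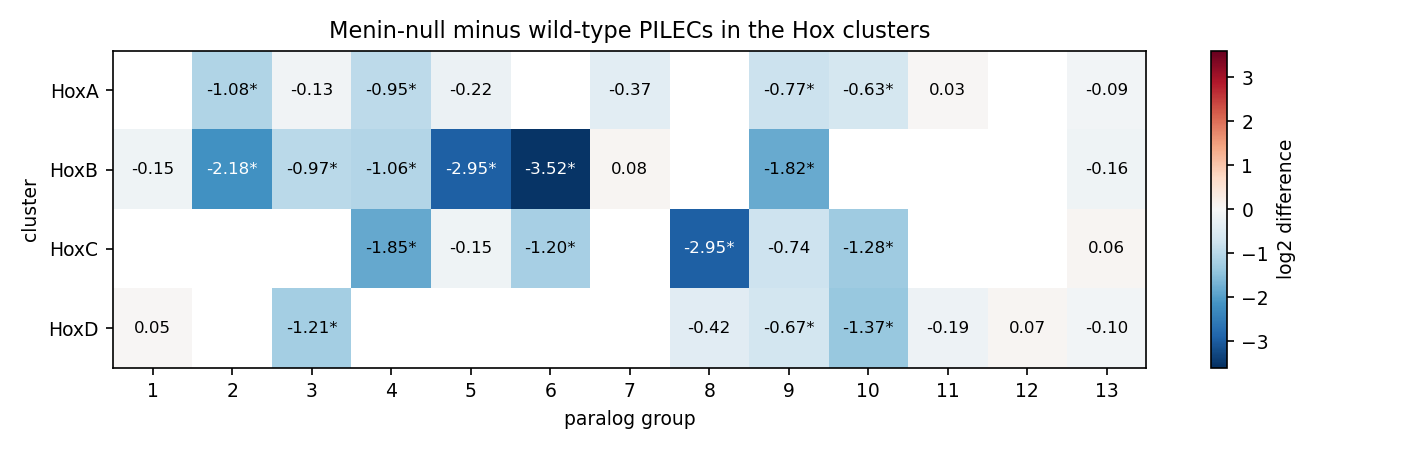
Log2 difference between menin-null and wild-type PILECs (colour and printed value) for each measured Hox gene, by cluster (rows) and paralog group (columns). An asterisk marks an adjusted p under 0.05 and blank cells were not measured by a probe set of their own; among the probe sets with the highest mean per gene, which are those drawn, Hoxb6 (-3.52), Hoxb5 (-2.95) and Hoxc8 (-2.95) are the deepest, and the second Hoxb3 probe set is not drawn.

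The genes outside the cluster whose course over the 8 arrays was closest to the mean course of the 7 members were Aspn, Hoxc4, Hoxc10, Lamp5 and Hoxd3. Likeness was the root mean square of the log2 difference between centred values, and it ran from 0.18 for Aspn, which encodes a matrix protein, to 0.275 for Hoxd3. Aspn read 4.41, 4.42, 6.41 and 4.92 on average in wild-type mESCs, menin-null mESCs, wild-type PILECs and menin-null PILECs. All of these means were under the receptor level of 6.78. Among the members themselves Hoxb9 was nearest to the mean course (0.168) and Hoxb7 farthest from it (0.956).

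Genes for Hox cofactors and chromatin complexes were counted in PILECs in the same way. Of 8 Hox cofactors of the Pbx and Meis kind, 1 was lower in PILECs without menin, Meis1 (-1.10, SE 0.14, adjusted p = 0.00617), which had means of 10.72 in wild-type and 9.62 in menin-null PILECs. Without wild-type PILEC array 1 the cofactor count was 0, and it was 3 when a menin-null mESC array was dropped and 2 when the second menin-null PILEC array was. At an unadjusted p under 0.05 there were 5 of the 8 cofactors. Of 10 genes for menin and MLL complex subunits only Men1 passed. Of 15 Polycomb genes 5 were called in either direction, where 6.68% of all genes were, and 9 had an unadjusted p under 0.05. Of the 5, 3 were lower, Ezh2 (-0.50), Eed (-0.44) and Mtf2 (-0.42), and 2 higher, Cbx7 (0.81) and Ezh1 (0.42). The Polycomb calls were unstable, with 0 to 4 lower and 0 to 2 higher when 1 array was left out, and 0 lower once a wild-type PILEC array or the first menin-null one was dropped.

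Of 20 upstream regulators and their responders, 5 were lower and 1 was higher in menin-null PILECs. Of all genes 4.42% were lower, and 6.68% were called in either direction. Crabp1, which binds retinoic acid in the cytoplasm, fell by 1.45 (SE 0.0925, adjusted p = 0.000391), Gbx2 fell by 1.07, and Rarb, a retinoic acid receptor that retinoic acid also induces, fell by 1.0. The Gbx2 means, 6.45 in wild-type and 5.37 in menin-null PILECs, were under the receptor level. Crabp2 fell by 0.90 and Rara by 0.58, whereas Cyp26a1, which degrades retinoic acid, rose by 0.58. The count of lower genes was 2 or 1 when the first or second wild-type PILEC array was dropped and 3 when the second menin-null one was, and the Cyp26a1 call was lost without any 1 PILEC array. In mESCs 1 gene of this list was higher and 1 lower, where 3.64% of all genes were called in either direction.

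Markers of cell types were read on the same arrays. Of 16 islet endocrine genes 9 rose from mESCs to PILECs in wild-type cells, among them Sst (2.42) and Chga (1.38), and 2 fell, Ppy (-0.44, adjusted p = 0.0216) and Neurod1 (-0.44, adjusted p = 0.0299), a transcription factor of endocrine progenitors and of neurons. Of all 18193 genes 27.8% rose and 6428 fell. Of the 16, 0 differed between genotypes in PILECs by limma at an adjusted p under 0.05, with 6 at an unadjusted p under 0.05. The hormone gene Gcg had means of 4.36 and 4.76 in wild-type and menin-null PILECs and Iapp 4.43 and 4.66, under the receptor level, and Ins2 had 7.23 and 7.37. Of 12 neuronal genes all 12 rose in wild-type cells, with a median of 4.46, and their array means in PILECs ran from 11.78 to 11.82 in wild-type and from 11.79 to 11.98 in menin-null cells. The arrays labelled as PILECs therefore read neuronal genes as well as genes of the islet list. In PILECs of either genotype 6 of the 16 islet genes had means under the receptor level.

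Skeletal muscle genes, like the HoxB genes, were often lower without menin in PILECs, but most of them still rose from mESCs. Of 12, 8 were lower in menin-null PILECs, where 4.42% of all genes were, led by Actc1 (-2.78) and Myog (-2.29). The mean signal of the 12 ran from 7.82 to 8.03 on wild-type and from 6.65 to 6.97 on menin-null PILEC arrays. Under the receptor level were 5 and 7 of 12. From mESCs to PILECs 9 of the 12 rose with menin (median 1.51), where 27.8% of all genes did. Without menin 7 rose and 1 fell (median 0.64), where 28.9% of all genes rose. Of the 7 HoxB members 6 rose with menin and 2 without it. The muscle count was 4 without wild-type PILEC array 2 and 6 or more without any other array. Of 12 fibroblast genes 4 were lower (Lum, Prrx1, Col1a2 and Twist1) and Thy1 was higher, with array means from 10.18 to 10.37 and from 9.95 to 10.28. Beside these genes and the pluripotency genes below, 4.42% of all genes were lower and 6.68% were called in either direction. Dropping a wild-type PILEC array or the second menin-null one gave a count of 0 lower fibroblast genes, dropping a wild-type mESC array gave 1, and dropping the first menin-null PILEC array gave 2. Of 10 pluripotency genes 5 were lower in menin-null PILECs, with array means from 8.86 to 9.08 in wild-type and from 8.41 to 8.46 in menin-null cells, and 3 were lower without wild-type PILEC array 1. The part of these cells in the HoxB difference was not tested.

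Of 12 neuronal genes 1 was higher without menin in PILECs, Syt1, of 7 hindbrain and spinal cord genes 1, Olig2, and of 6 exocrine pancreas genes 1, Krt19. Of all genes 6.68% were called in either direction. The Syt1 call ended when a wild-type PILEC array or the second menin-null one was dropped, and the calls of Olig2 and Krt19 without any 1 array of wild-type mESCs or of PILECs. Of 10 endothelial and blood genes 0 passed limma's test at an adjusted p under 0.05 and 2 had an unadjusted p under 0.05.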

How the data were processed

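RNA was measured on 8 arrays in 4 groups of 2. The deposited values, 1 log2 signal per probe set and array between 3.26 and 15.2, were made by the authors. RMA and Partek are named, without versions, in the submitters' processing notes, whereas the study's methods name the Affymetrix suite MAS, and which of them made the values is not known here. No genome build of the annotation is given in the sources used here. The number of arrays limits the precision.

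Of 45101 probe sets, 64 controls, 9160 without a symbol and 932 with several were left out of the gene fit. The annotation pairs probe sets with symbols and can be old. Where a gene had several probe sets, the one with the highest mean stood for it, which gave 18193 genes. Group means were fitted over the 8 arrays in limma 3.58.1 (R 4.3.3), with variances moderated across genes (4 residual degrees of freedom, 3.72 from the prior). P-values were adjusted over all genes by Benjamini and Hochberg, and "rose", "fell", "lower" and "higher" mean an adjusted p under 0.05. Single probe sets were fitted over 34945, and the shared one over 45037 (chosen after seeing the data). With 2 arrays against 2 an exact permutation test cannot go below 0.333. SE and intervals of 95% come from the fit. The fit was tested on simulated data. Gene order was taken from RefSeq on GRCm38.p6, where 18031 of 18193 genes matched. Figures were drawn with matplotlib 3.10.9.

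The members and gene lists were chosen with earlier results of these data known. Named were all members and their probe sets, Hoxb1, Hoxb13, Men1, up to 4 called genes of each list with the largest difference (others of the lists, the marker genes and the neighbours are named after their values were seen), and the 5 genes most like the members. Alternatives were quantile normalization, the mean of a gene's probe sets, other filters, other variance models, a replicate block, the study's threshold and leaving out each array.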

Additional observations from a re-analysis of the deposited data

Results flagged for a closer look

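For 6 members the difference between menin-null and wild-type cells was not the same in PILECs as in mESCs, by the interaction term of limma. The log2 difference in PILECs minus that in mESCs was -2.18 for Hoxb2, -0.90 for Hoxb3, -0.89 for Hoxb4, -3.14 for Hoxb5, -3.50 for Hoxb6 and -1.54 for Hoxb9. The adjusted p was 0.0119, 0.0285, 0.0495, 0.0119, 0.00138 and 0.0455 in that order. The Hoxb9 value lost its call in all 8 fits that left out 1 array, and in the fit over single probe sets Hoxb9 (adjusted p = 0.0579) and Hoxb4 by probe set 1460379_at (adjusted p = 0.0662) were not called. The second probe sets of Hoxb3, 1456229_at (-3.35, adjusted p = 0.000556), and of Hoxb4, 1451761_at (-1.09, adjusted p = 0.016), were called in that single probe set fit. In mESCs the levels of the 6 members were under the receptor level in both genotypes. Groups of 2 arrays are too small for a test of single outlying arrays.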

How the results depend on the processing

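The members kept the direction of every called difference under all alternatives run. The count of members lower in menin-null PILECs, 6 of 7, was 2 without moderation of the variances, where Hoxb3, Hoxb4, Hoxb5 and Hoxb9 had adjusted p between 0.0504 and 0.0716, and 5 or 6 when 1 array was left out. The interaction count, 6 of 7, was 0 without moderation, 3 with the replicate block, and 2 to 5 when 1 array was left out. The count of members that rose in menin-null cells, 2 of 7, was 1 with quantile normalization, 1 without moderation, 0 at the study's threshold (a change of 2-fold or more and a p, not adjusted, under 0.005) and 1 to 3 when 1 array was left out. The counts of members that rose in wild-type cells and that differed in mESCs were 6 and 0 in each fit that left out 1 array. When probe sets with the suffix s, x or a, which can read several transcripts, were left out, Hoxb6 was not measured. The cause of the lost calls was not tested.

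Whether the replicate numbers pair the arrays is not known: the correlation of replicate differences between groups ran from -0.277 to 0.209. It was 0.0641 and 0.209 between groups of the same genotype, and from -0.277 to -0.0623 between groups of different genotypes. Beside the interaction count, the block changed no count of called members in the other comparisons. With the pairing crossed between genotypes, an alternative added after seeing the data, the interaction count was 5 and 6 members were lower in PILECs. Over all genes the block moved the calls between menin-null and wild-type PILECs from 1216 to 734, and the crossed block moved them to 1512. Counts over all genes in that comparison ran from 143 to 2383 over the alternatives. Signal near the receptor level limits what can be said of mESCs.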
